A study of Mus musculus with 12 samples.

Results

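The transcription factors that define hepatocytes were followed across 12 arrays in 10 genes: Hnf4a, Foxa1, Foxa2, Foxa3, Cebpa, Cebpb, Onecut1, Prox1, Nr5a2 and Hhex. Every probe set annotated with one of these symbols was taken, whatever its values. This gave 18 of 22626 probe sets, and 10 of the 12393 genes named by a single symbol. RNA had been measured on Affymetrix 3′ arrays in 4 groups of 3 arrays: hepatocytes of phenobarbital-treated mice, hepatocytes of vehicle-treated mice, mesenchymal cells of phenobarbital-treated mice and mesenchymal cells of vehicle-treated mice. All mice were C57BL/6N males, aged 12 weeks, and the labels name no allele. Phenobarbital, a sedative known to switch on the receptor CAR and through it the drug-metabolising enzymes of liver, was given in drinking water at 50 mg/kg per day for 14 days, and vehicle mice drank tap water. The labels give each array as a sample of its own and do not say how many animals contributed to it, so the p-values cover the spread from array to array, part of which may be technical.

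Hepatocyte identity is held by a small set of factors that bind together at liver genes and activate one another's promoters. Hnf4a is a nuclear receptor that activates genes of metabolism, clotting and bile acid synthesis, and the forkhead proteins Foxa1, Foxa2 and Foxa3 open chromatin at liver enhancers. Cebpa and Cebpb are bZIP factors of the differentiated and of the acute-phase or regenerating hepatocyte, Onecut1 (also called HNF6) is a cut-homeodomain activator, Nr5a2 (LRH-1) is an orphan receptor of bile acid genes, Prox1 is a homeodomain protein that represses Hnf4a and Nr5a2 activity, and Hhex is a homeodomain repressor needed for the liver bud. Several of them are not confined to hepatocytes: Cebpb is active in macrophages, Hhex in endothelial cells and Prox1 in lymphatic endothelium.

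The cell labels were compared with marker genes on each array. All 13 measured hepatocyte markers of 15 listed were higher in hepatocytes than in mesenchymal cells of vehicle mice (median log2 difference 4.39). Of 12 tested Kupffer cell markers 12 were lower (median −7.83), as were 14 of 14 tested sinusoidal endothelial and 8 of 9 tested stellate cell markers. So were 5 of 7 tested lymphocyte and 3 of 3 tested lymphatic endothelial markers. Those 3 lymphatic markers, Reln, Lyve1 and Flt4, also stood in the stellate cell or sinusoidal endothelial lists, so they do not mark a further cell type here. Measured were 12 stellate cell, 9 lymphocyte and 4 lymphatic endothelial markers, of which the rest were too dim to test. The untested stellate cell markers Pdgfrb, Hand2 and Col1a1 were not lower in hepatocytes on average. Markers of macrophages and endothelium, and most tested stellate cell markers, were thus higher in the fraction called mesenchymal. Of 2 tested cholangiocyte markers 1 was higher and 1 lower in hepatocytes. Vehicle arrays numbered 1 stood apart in both populations. Their circadian clock genes averaged 7.82 in hepatocytes, against 8.61 and 8.64 on the other vehicle arrays, and 7.12 in mesenchymal cells, against 8.41 and 8.69. Single clock genes stood further apart, and in both directions. In hepatocytes Dbp read 6.21, against 11.87 and 11.60, and Arntl 9.57, against 5.73 and 6.20. Where leaving out one of these arrays altered a phenobarbital difference by much, the value without it or the single array values stand beside that difference.

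Values are log2 expression values from RMA, so a difference of 1 is a 2-fold difference in signal, and levels are compared only within a probe set. Where a gene had several probe sets, the brightest on average over the 12 arrays was used for it, and the others are given by their identifiers. In hepatocytes, every member lay above the 40th percentile of its array (6.54 to 6.60 there) on all phenobarbital arrays, and the lowest single value among vehicle arrays was Prox1 at 6.49. In mesenchymal cells, where that percentile was 6.64 to 6.68, Foxa1, Foxa3, Onecut1 and Prox1 lay below it on all 6 arrays, while Hnf4a, Cebpa, Cebpb, Nr5a2 and Hhex lay above it on all 6.

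**Figure D1:**
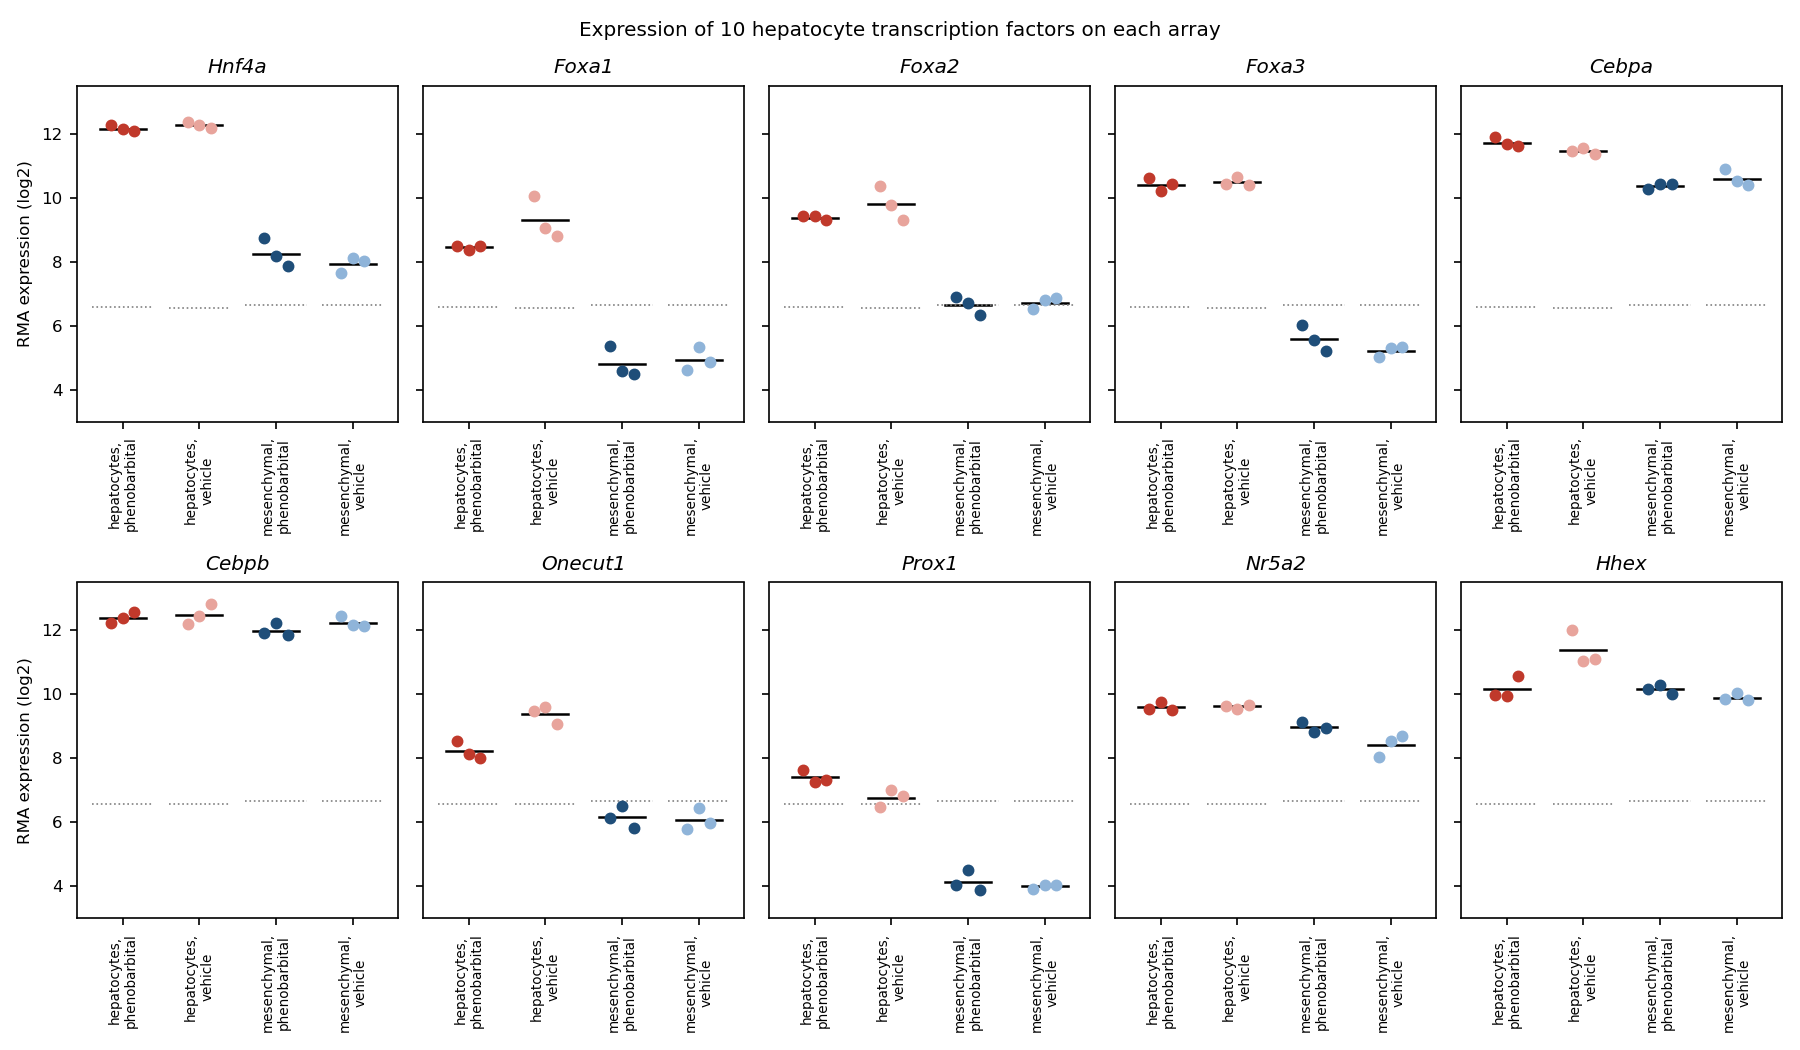
RMA expression (log2) of the 10 genes on each of the 12 arrays, 1 panel per gene by its brightest probe set, with a bar at each group's mean and a dotted line at the 40th percentile of the arrays (mean of the group). The 3 phenobarbital hepatocyte arrays sit below the vehicle ones for Foxa1, Onecut1 and Hhex and above them for Prox1 and Cebpa. Hhex lies near 10 on the arrays of both mesenchymal groups and of phenobarbital hepatocytes.

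Promoters are shown for the 3 genes whose phenobarbital hepatocyte arrays all lay below the vehicle arrays, Onecut1, Hhex and Foxa1, and for Hnf4a, whose arrays overlapped. Each is the 250 bases before a RefSeq start site in the mouse build GRCm38.p6, written 5′ to 3′ on the gene's strand, and capitals mark motif matches on either strand. For Foxa1 and Hnf4a this start lies inside the RefSeq gene span, which is chr12:57540628-57548029 and chr2:163506811-163572907. The Onecut1 promoter is chr9:74861671-74861920 on the plus strand, Hhex chr19:37434591-37434840 on the plus strand, Foxa1 chr12:57546112-57546361 on the minus strand, and Hnf4a chr2:163506607-163506856 on the plus strand, the first of 2 start sites that lie 40298 bases apart.
Onecut1: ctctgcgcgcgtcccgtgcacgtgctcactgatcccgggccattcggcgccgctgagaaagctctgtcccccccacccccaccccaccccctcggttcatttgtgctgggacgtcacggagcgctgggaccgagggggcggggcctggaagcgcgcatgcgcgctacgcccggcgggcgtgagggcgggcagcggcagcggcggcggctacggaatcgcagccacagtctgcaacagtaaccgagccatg
Hhex: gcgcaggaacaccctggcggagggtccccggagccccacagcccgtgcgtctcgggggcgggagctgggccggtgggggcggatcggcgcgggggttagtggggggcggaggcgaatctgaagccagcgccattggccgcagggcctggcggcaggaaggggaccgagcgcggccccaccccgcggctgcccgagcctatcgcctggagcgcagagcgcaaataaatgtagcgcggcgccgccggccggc
Foxa1: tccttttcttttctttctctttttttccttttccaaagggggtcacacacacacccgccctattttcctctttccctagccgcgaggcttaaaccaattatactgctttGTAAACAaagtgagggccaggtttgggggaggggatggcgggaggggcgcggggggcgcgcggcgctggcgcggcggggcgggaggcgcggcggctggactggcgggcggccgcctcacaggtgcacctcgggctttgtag
Hnf4a: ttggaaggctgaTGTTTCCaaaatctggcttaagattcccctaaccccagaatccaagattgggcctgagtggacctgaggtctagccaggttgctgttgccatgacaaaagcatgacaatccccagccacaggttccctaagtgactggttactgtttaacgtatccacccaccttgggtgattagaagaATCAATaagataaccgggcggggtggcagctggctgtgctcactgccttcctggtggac

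Motifs were searched on both strands in 9 spellings: TGTTTAC and the wider TGTTTNC of forkhead factors (every match of the first is one of the second), ATTGAT of Onecut1, TTNNGCAA of C/EBP factors, AGGTCA of nuclear receptors, CAAGGTCA of Nr5a2 (which holds AGGTCA), CAAAGTCCA of Hnf4a, the motif of Hnf1 factors (1 form of which is GTTAATCATT), and TATAAA. The Foxa1 promoter holds 1 forkhead match, GTAAACA, at 135 to 141 bases before the start. TGTTTAC on either strand occurs in 3.17% of all 32851 promoter windows of this length. The printed Hnf4a window, that of the first start, holds TGTTTCC at 232 to 238 bases before the start. It also holds ATCAAT, the reverse complement of ATTGAT, at 54 to 59 bases. The window of the second Hnf4a start, not printed, holds no match to any of the motifs. TGTTTNC occurs in 17.8% and ATTGAT in 6.72% of all windows. The Onecut1 and Hhex windows hold none of these letters. They are rich in G and C, at 71.6% and 76.0%, where Foxa1 has 62.0%, Hnf4a 51.2% and the median window 52.4%. Among the members not printed, the first start of Foxa2, of 3, holds ATTGAT at 208 to 213 bases, and TATAAA, found in 12.4% of all windows, lies 31 to 36 bases before the start of Foxa3, 25 to 30 before that of Cebpa and, on the opposite strand, 29 to 34 before the first of 2 Prox1 starts. It also lies, on the opposite strand, 203 to 208 bases before the third Foxa2 start and 176 to 181 before the first Nr5a2 start. The other Prox1 start holds a TGTTTNC match at 114 to 120 bases, and the other Nr5a2 start a TTNNGCAA match (9.56% of all windows) at 236 to 243 bases. The first of 2 Nr5a2 starts holds GTTAATCATT at 227 to 236 bases and AGGTCA, found in 14.0% of all windows, at 59 to 64 bases. The Hnf1 motif occurs in 0.371% of all windows. These matches describe letters and do not show that a factor binds there.

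Phenobarbital against vehicle in hepatocytes asked whether 14 days of treatment altered these factors in the cell they define. None of the 10 genes, and none of their 17 tested probe sets, passed in limma at a Benjamini-Hochberg adjusted p of 0.05. Over all probe sets, 8 of 13705 passed, or 0.0584%. At an unadjusted p under 0.05 stood 5 of the 10 genes, against 8.03% of all probe sets tested. The 3 phenobarbital arrays did not overlap the vehicle arrays in 5 of 10 genes, against 14.8% of all probe sets (6.92% higher and 7.92% lower with phenobarbital). Of these, Onecut1, Hhex and Foxa1 were lower with phenobarbital and Prox1 and Cebpa higher. The median difference of the 10 genes was −0.11.

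Hnf4a, the nuclear receptor at the centre of the set, read 12.28, 12.14 and 12.09 on the phenobarbital arrays and 12.39, 12.27 and 12.20 on the vehicle arrays. The groups overlapped, and the difference was −0.12 (SE 0.08, 95% interval −0.30 to 0.07), and −0.07 without vehicle array 1. Its other probe sets differed by 0.06 (1421983_s_at), −0.13 (1427000_at) and 0.18 (1450447_at). On 1450447_at the phenobarbital arrays read 8.85, 8.92 and 8.84, all just above the vehicle arrays at 8.76, 8.50 and 8.83, a gap smaller than the spread of the vehicle arrays. The 4 probe sets thus differ in sign, and each interval holds 0.

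The 3 Foxa genes gave different values. Foxa1 read 8.50, 8.37 and 8.48 with phenobarbital and 10.04, 9.07 and 8.82 with vehicle. All phenobarbital arrays lay below all vehicle arrays, and the vehicle arrays were widely spread (SD 0.65, against 0.07 in the phenobarbital group, n = 3 each). The difference was −0.86 (SE 0.28, 95% interval −1.51 to −0.21, adjusted p = 0.524, limma), a 1.81-fold lower signal, and it was −0.49 without vehicle array 1. Foxa2 read 9.43, 9.43 and 9.30 with phenobarbital and 10.36, 9.77 and 9.30 with vehicle. These groups overlapped, and the difference of −0.42 (SE 0.23) was −0.15 without vehicle array 1, the array on which Foxa1, Foxa2, Hnf4a and Hhex were each highest of the 6. Foxa3 read 10.62, 10.21 and 10.43 with phenobarbital and 10.42, 10.66 and 10.41 with vehicle, with full overlap and a difference of −0.08 (SE 0.12).

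The bZIP pair also differed. Cebpa read 11.91, 11.67 and 11.61 with phenobarbital and 11.47, 11.56 and 11.37 with vehicle. The groups were separate by a small margin, and the difference was 0.27 (SE 0.10, 95% interval 0.05 to 0.49, adjusted p = 0.573, limma). Cebpb overlapped on both probe sets, with differences of −0.09 (SE 0.16) and, for 1427844_a_at, −0.05 (SE 0.18). Without vehicle array 1, the lowest of the 6 on both, these were −0.24 and −0.19.

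Onecut1 had the smallest p of the members and was the only one with 2 probe sets that both separated the groups. It read 8.55, 8.12 and 8.0 with phenobarbital and 9.47, 9.60 and 9.08 with vehicle. The lowest vehicle array was 0.53 above the highest phenobarbital array. The difference was −1.16 (SE 0.18, 95% interval −1.58 to −0.74), a 2.23-fold lower signal, which ranked 22 among 13705 probe sets by p and had an adjusted p of 0.144 in limma. The probe set 1421447_at read 7.98, 7.37 and 7.35 with phenobarbital and 9.18, 9.19 and 8.54 with vehicle. It differed by −1.40 (SE 0.23), ranked 27 and had an adjusted p of 0.159. It passed only when all 12 arrays entered 1 limma fit (adjusted p = 0.0416), and its adjusted p ran up to 0.560 over the 12 alternatives. With 1 array left out, the 2 probe sets ranged from −1.32 to −1.05 and from −1.62 to −1.29.

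Hhex read 9.98, 9.94 and 10.57 with phenobarbital and 12.02, 11.03 and 11.10 with vehicle. The groups were separate, with vehicle array 1 highest and phenobarbital array 3 nearest to the vehicle group. The difference was −1.22 (SE 0.28, 95% interval −1.87 to −0.57), a 2.33-fold lower signal with an adjusted p of 0.391 in limma. It was −0.90 without vehicle array 1 and −1.42 without phenobarbital array 3.

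Prox1, the co-repressor, was the member with the largest positive difference. It read 7.63, 7.27 and 7.32 with phenobarbital and 6.49, 7.0 and 6.83 with vehicle. Every phenobarbital array was above every vehicle array, and vehicle array 1 was the lowest. The difference was 0.63 (SE 0.16, 95% interval 0.26 to 1.01, adjusted p = 0.453, limma) and 0.49 without vehicle array 1. Nr5a2 overlapped on all 4 probe sets, of which 1449707_at was too dim to be tested (5.18 to 5.66 with phenobarbital and 5.39 to 5.59 with vehicle). The other 3 differed by −0.03, 0.04 (1420410_at) and −0.05 (1449706_s_at), and its main probe set had a 95% interval of −0.24 to 0.19.

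**Figure D2:**
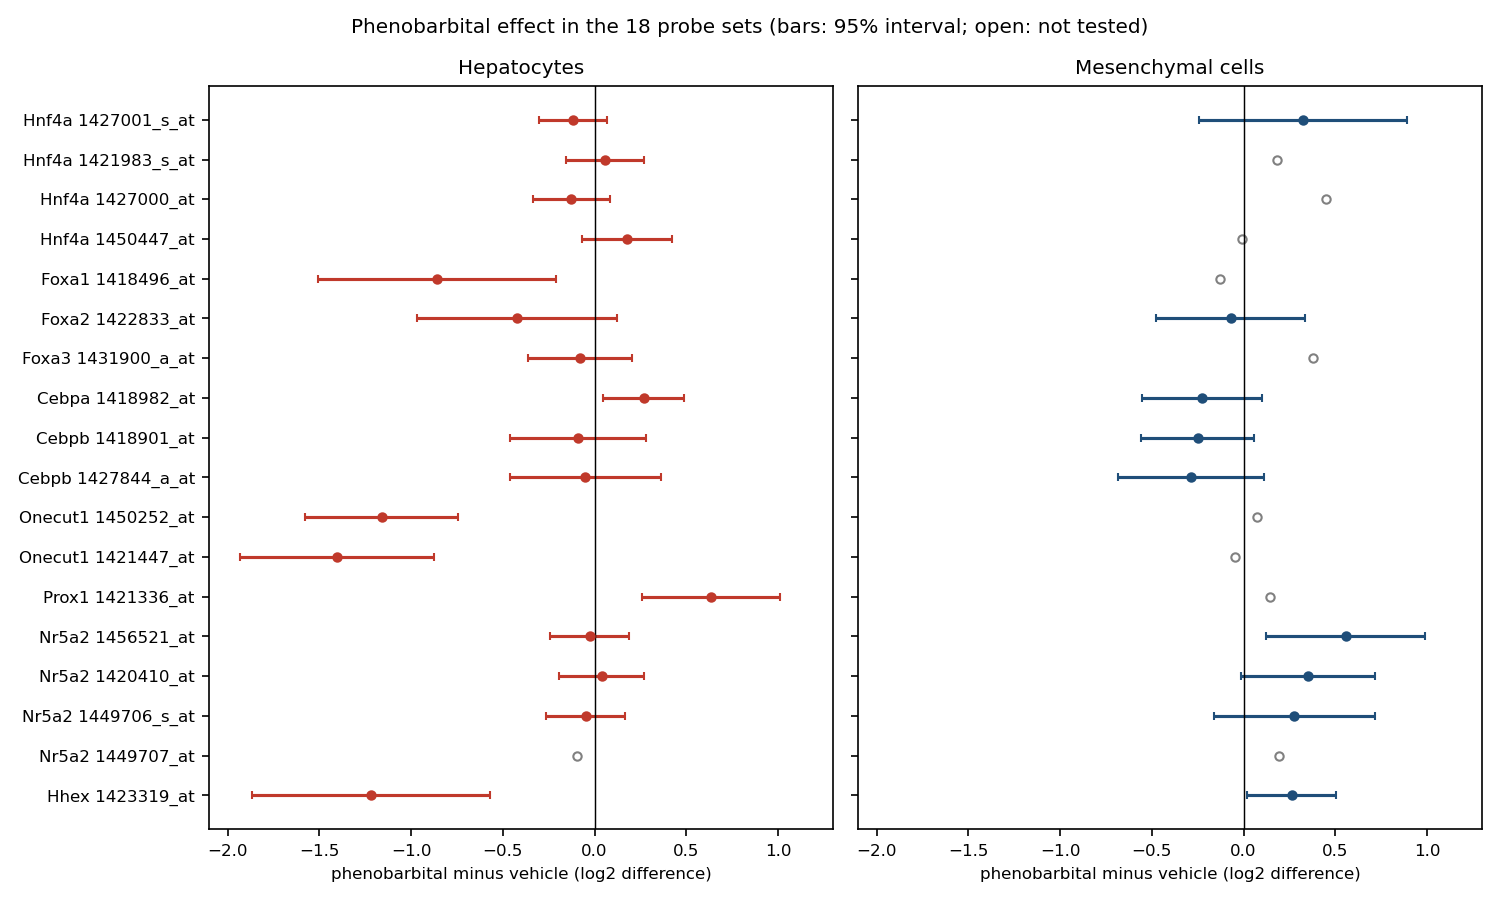
Phenobarbital minus vehicle (log2 difference, x axis) for each of the 18 probe sets in hepatocytes and in mesenchymal cells, with 95% intervals for tested probe sets and open circles for those too dim to test. In hepatocytes the intervals of Foxa1, Onecut1 and Hhex lie below 0 and those of Prox1 and Cebpa above it, before adjustment for multiple testing.

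**Figure D3:**
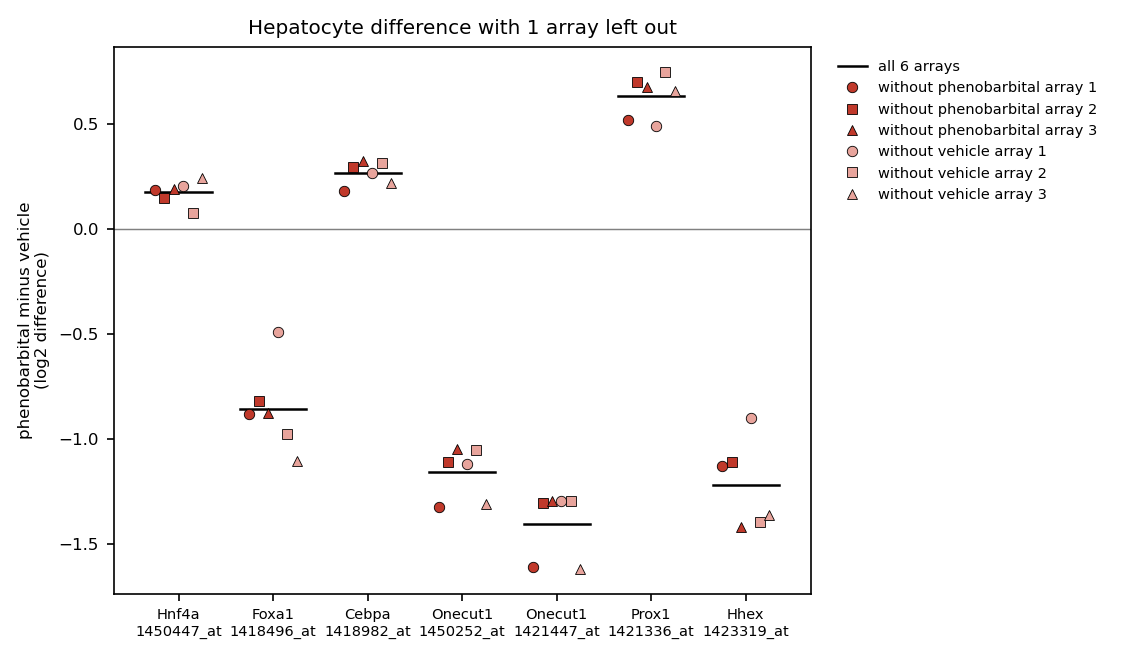
Hepatocyte difference, phenobarbital minus vehicle (log2), for the 7 probe sets without overlap between the groups, over all 6 arrays (bar) and with each array left out in turn (symbols). Foxa1 moves most, to −0.49 without vehicle array 1, and every symbol keeps the side of 0 that groups without overlap must give.

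No other gene of the same network passed in this comparison. Of 17 tested partner factors and cofactors, none passed, 10 differences were positive, and the median was 0.06 (−0.05 to 0.18 with 1 array left out). The smallest p among them belonged to Esrra, the oestrogen-related receptor of mitochondrial genes, at 0.29 (SE 0.09), and Nr1h4, the bile acid receptor FXR, at 0.46 (SE 0.18), with adjusted p of 0.524 and 0.608 in limma. Without vehicle array 1 they were 0.32 and 0.25. Of 28 hepatocyte genes that these factors are known to activate, none passed, 14 were positive and 14 negative, and the median was 0.00. Igfbp1, a secreted binder of insulin-like growth factors, had the smallest p, at −1.64 (SE 0.25, adjusted p = 0.126, limma). It read 11.10, 10.48 and 10.59 with phenobarbital and 12.89, 11.98 and 12.21 with vehicle, with vehicle array 1 the highest. The gene with the next smallest p, Ahsg (fetuin-A), differed by −0.13.

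Relatives of the members were treated in the same way. None of 8 tested bZIP relatives passed, with Nfil3, a repressor of clock output genes, at −1.09 (SE 0.39) and at −0.57 without vehicle array 1. None of 9 tested forkhead genes outside the Foxa group passed, with Foxq1 at −1.38 (SE 0.52) and at −0.68 without vehicle array 1. None of 9 tested endothelial and macrophage factors passed, with a median of −0.06 (−0.13 to 0.05 with 1 array left out). Lists of cell state had differences of their own beside the members, none of which passed. Of the immediate early genes 12 of 13 were negative (median −0.54), of the acute phase genes 16 of 17 (median −0.39), and of the clock genes 9 of 11 were positive (median 0.49). Without vehicle array 1, 11 of 13 immediate early genes were negative (median −0.35), 15 of 17 acute phase genes were negative (median −0.35) and 6 of 11 clock genes were positive (median 0.06). Immediate early genes averaged 8.79, 8.51 and 8.87 on the phenobarbital arrays and 9.53, 9.18 and 8.89 on the vehicle arrays. Kupffer and sinusoidal endothelial markers had median differences of −0.10 (5 tested) and 0.11 (7 tested), which ran from −0.27 to 0.03 and from −0.07 to 0.34 with 1 array left out. The part of these lists in the values of Onecut1, Hhex, Foxa1 and Prox1 was not tested. In bulk samples of this kind, fewer cells of a type and less RNA per cell cannot be told apart.

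Phenobarbital against vehicle in mesenchymal cells gave no call on any gene. In limma 0 of 13642 probe sets passed, or 0%, and 2.96% had an unadjusted p under 0.05. Of the 10 members, 6 were bright enough to be tested, none passed, and 2 had an unadjusted p under 0.05. Nr5a2 read 9.15, 8.82 and 8.95 with phenobarbital and 8.03, 8.53 and 8.69 with vehicle. The groups did not overlap, which held for 7.65% of all probe sets, and vehicle array 1 was the lowest. The difference was 0.56 (SE 0.18, adjusted p = 0.999, limma), and 0.36 without vehicle array 1. Its other tested probe sets had smaller differences. On 1420410_at, also without overlap, it was 0.35 (SE 0.15), and 0.17 without vehicle array 1. On 1449706_s_at, where the groups overlapped, it was 0.28 (SE 0.18), and 0.08 without vehicle array 1. Hhex read 10.18, 10.29 and 10.02 with phenobarbital and 9.84, 10.04 and 9.83 with vehicle. These groups overlapped, and the difference was 0.26 (SE 0.10, adjusted p = 0.999, limma).

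The remaining members overlapped in mesenchymal cells. Hnf4a differed by 0.33 (SE 0.24), by 0.09 without phenobarbital array 1 and by 0.18 without vehicle array 1. Cebpa differed by −0.23 (SE 0.14), Cebpb by −0.25 (SE 0.13) and Foxa2 by −0.07 (SE 0.17). Without vehicle array 1 these were −0.08, −0.15 and −0.17. Foxa1, Foxa3, Onecut1 and Prox1 were too dim for the test, with differences between −0.13 and 0.38. Hepatocyte markers differed between the mesenchymal arrays along with these values. The 13 hepatocyte markers averaged 11.52, 10.13 and 9.87 on the phenobarbital arrays and 9.28, 10.58 and 10.44 on the vehicle arrays, and their summed level, on the log2 scale, ran from 14.80 to 16.16 with phenobarbital and from 14.37 to 15.39 with vehicle. None of the 13 lay below the 40th percentile throughout a mesenchymal group. By their brightest probe sets, Hnf4a, Foxa1, Foxa2, Foxa3 and Nr5a2 were highest of the 6 on phenobarbital array 1, also the highest in markers. Vehicle array 1, the lowest in markers, was the lowest in Hnf4a, Foxa3, Nr5a2 and Onecut1. Other probe sets did not all share this order. Hnf4a 1450447_at and Nr5a2 1449706_s_at were highest on phenobarbital array 2, and Nr5a2 1420410_at on phenobarbital array 3. Cebpa ran the other way, lowest on phenobarbital array 1 at 10.28 and highest on vehicle array 1 at 10.89, and Cebpb was highest on vehicle array 1 at 12.45. Onecut1, Prox1 and Hhex were highest on phenobarbital array 2. The part of hepatocyte RNA in these differences was not tested. All 24 tested hepatocyte target genes were positive here (median 0.46, 0 passed), but 13 of 24 were without phenobarbital array 1 (median 0.04) and 18 of 24 without vehicle array 1 (median 0.13). Of 13 partner genes 10 were positive (median 0.12, 0 passed), and 5 without vehicle array 1 (median −0.01).

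The difference between the 2 phenobarbital effects, hepatocyte minus mesenchymal, was tested over all 12 arrays. None of 15432 probe sets passed in limma, or 0%, while 772 had an unadjusted p under 0.05. Hhex differed between the populations by −1.48 (SE 0.34, 95% interval −2.22 to −0.74, adjusted p = 0.813, limma). Its hepatocyte difference was −1.22 and its mesenchymal difference 0.26, so the 2 lay on opposite sides of 0. Onecut1 gave −1.23 (SE 0.32), and −1.36 on 1421447_at (SE 0.29, adjusted p = 0.801, limma), which ranked 11 among all probe sets by p. Nr5a2 gave −0.58 (SE 0.22) and Cebpa 0.49 (SE 0.17), each with an adjusted p of 0.958. The Nr5a2 probe sets 1420410_at and 1449706_s_at gave −0.31 and −0.33. Without the vehicle arrays numbered 1 of both populations, Hhex gave −1.13, Onecut1 −1.05, Nr5a2 −0.38 and Cebpa 0.35, and none passed.

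Hepatocytes against mesenchymal cells gave the level of each factor in the 2 populations. In vehicle mice 9 of the 10 genes were higher in hepatocytes, with the widest difference for Foxa3 and the narrowest among those that passed for Cebpa. In this comparison 82.2% of all probe sets passed in limma, and 38.9% passed as higher in hepatocytes. The median difference of the 10 genes was 2.93. Cebpb did not pass. Between the populations, subtracting each array's median shifts all differences by 0.22 in vehicle and 0.23 in phenobarbital mice, so small differences depend on that choice.

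Foxa3 averaged 10.49 ± 0.14 in hepatocytes and 5.22 ± 0.17 in mesenchymal cells of vehicle mice (SD, n = 3 each), a difference of 5.28 (SE 0.19, adjusted p = 2.61e-10, limma). Foxa1 differed by 4.37 (SE 0.31) and Foxa2 by 3.09 (SE 0.23), so all 3 forkhead genes were higher in hepatocytes. Hnf4a averaged 12.29 ± 0.09 in hepatocytes and 7.93 ± 0.26 in mesenchymal cells, a difference of 4.36 (SE 0.19). Its other probe sets differed by 5.19, 5.56 and, on 1450447_at, 2.54. The 4 probe sets share a direction and differ in size.

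Onecut1 differed by 3.31 (SE 0.23) and by 4.52 (SE 0.21) on 1421447_at, and Prox1 by 2.78 (SE 0.18). The remaining members had smaller differences. Hhex averaged 11.38 ± 0.55 in hepatocytes and 9.90 ± 0.12 in mesenchymal cells, a difference of 1.48 (SE 0.24). Nr5a2 differed by 1.21 (SE 0.15), and by 1.49 and 1.24 on 1420410_at and 1449706_s_at. Cebpa averaged 11.46 ± 0.09 in hepatocytes and 10.60 ± 0.26 in mesenchymal cells, a difference of 0.86 (SE 0.12, adjusted p = 4.12e-05, limma). Cebpb averaged 12.49 ± 0.31 in hepatocytes and 12.25 ± 0.17 in mesenchymal cells, and the groups overlapped (difference 0.25, SE 0.16, adjusted p = 0.172, limma). Its probe set 1427844_a_at passed with 0.71 (SE 0.19), and the main one passed with 0.39 without hepatocyte vehicle array 1 and with 0.49 without the vehicle arrays numbered 1 of both populations.

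In phenobarbital mice 9 of the 10 members were again higher in hepatocytes, where 82.5% of all probe sets passed and 39.2% passed as higher, but the gene that did not pass was Hhex. Hhex averaged 10.16 ± 0.35 in hepatocytes and 10.16 ± 0.13 in mesenchymal cells (SD, n = 3 each), with a 95% interval of the difference from −0.52 to 0.52. Foxa3 differed by 4.82, Hnf4a by 3.91, Foxa1 by 3.64, Prox1 by 3.27, Foxa2 by 2.73 and Onecut1 by 2.07. Cebpa differed by 1.36 (SE 0.12), Nr5a2 by 0.63 (SE 0.15) and Cebpb by 0.40 (SE 0.16, adjusted p = 0.0342, limma). The Cebpb call was lost with the replicate number as a block (adjusted p = 0.0659) and when any 1 of phenobarbital hepatocyte arrays 2 and 3 or mesenchymal arrays 1 and 3 was left out. No member passed the test of whether this difference between the populations varied with treatment.

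**Figure D4:**
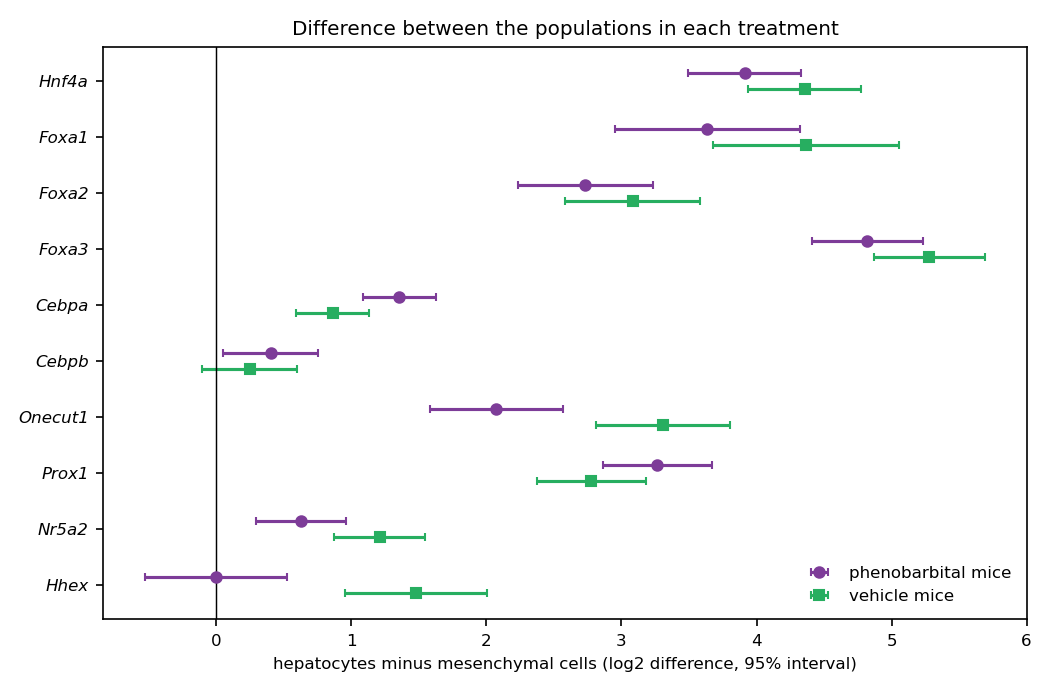
Hepatocytes minus mesenchymal cells (log2 difference, x axis, with 95% intervals) for the 10 genes in phenobarbital mice (circles) and vehicle mice (squares). The interval of Hhex holds 0 in phenobarbital mice, from −0.52 to 0.52, and not in vehicle mice, and that of Cebpb holds 0 in vehicle mice.

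Set on a linear scale, each mesenchymal array can be read as a percentage of the hepatocyte mean of the same treatment. Foxa3 stood at 4.80%, 3.44% and 2.68% in phenobarbital mice and 2.26%, 2.72% and 2.79% in vehicle mice. The 13 hepatocyte markers had medians of 12.9%, 5.53% and 4.04% on the phenobarbital arrays and 2.41%, 6.73% and 6.20% on the vehicle arrays, so Foxa3 lay below the marker median on each of the 6 arrays. Hnf4a lay at 5.03% to 9.27% in phenobarbital mice and 3.99% to 5.60% in vehicle mice, within the range of the markers on each array.

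By their brightest probe sets, Cebpa, Cebpb, Nr5a2, Hhex, Onecut1 and Foxa2 stood above the marker median on all 6 mesenchymal arrays, Prox1 on 5, and Hnf4a and Foxa1 on 3. Other probe sets of Hnf4a differed: 1450447_at lay above that median on every array, and 1421983_s_at and 1427000_at lay below it on every array. Foxa1, Foxa3, Onecut1, Prox1 and these other Hnf4a probe sets lay below the 40th percentile on all 6 arrays, so their percentages rest on dim signals. Onecut1 stood at 18.8% to 30.6% in phenobarbital mice and 8.33% to 13.1% in vehicle mice. On 1421447_at it stood at 10.3% to 11.6% and at 3.80% to 4.88%, and was not above the marker median on every array. Foxa2 stood at 12.1% to 18.04% in phenobarbital mice and 10.2% to 12.9% in vehicle mice. Cebpb stood at 68.1% to 88.4% in phenobarbital mice and 77.8% to 96.8% in vehicle mice. On 1427844_a_at it was lower, at 44.4% to 64.4% and at 55.4% to 72.1%. Cebpa stood at 36.5% to 40.4% in phenobarbital mice and 47.5% to 67.1% in vehicle mice. Nr5a2 stood at 58.4% to 73.1% in phenobarbital mice and 33.1% to 52.2% in vehicle mice. On 1420410_at it stood at 44.0% to 44.8% and at 27.8% to 41.6%. On 1449706_s_at the treatments overlapped, at 46.3% to 57.2% and at 32.0% to 50.3%. The dim 1449707_at stood at 75.7% to 81.7% and at 59.1% to 73.1%. Hhex stood at 101%, 109% and 90.6% in phenobarbital mice and 34.3%, 39.3% and 34.1% in vehicle mice. The markers themselves varied widely. Alb stood at 35.2% to 79.8% in phenobarbital and 32.2% to 56.2% in vehicle mesenchymal cells, and Cps1 at 2.52% to 11.0% in phenobarbital and 1.59% to 4.23% in vehicle mesenchymal cells. These percentages are ratios of array signals, and the cause of this spread was not tested.

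**Figure D5:**
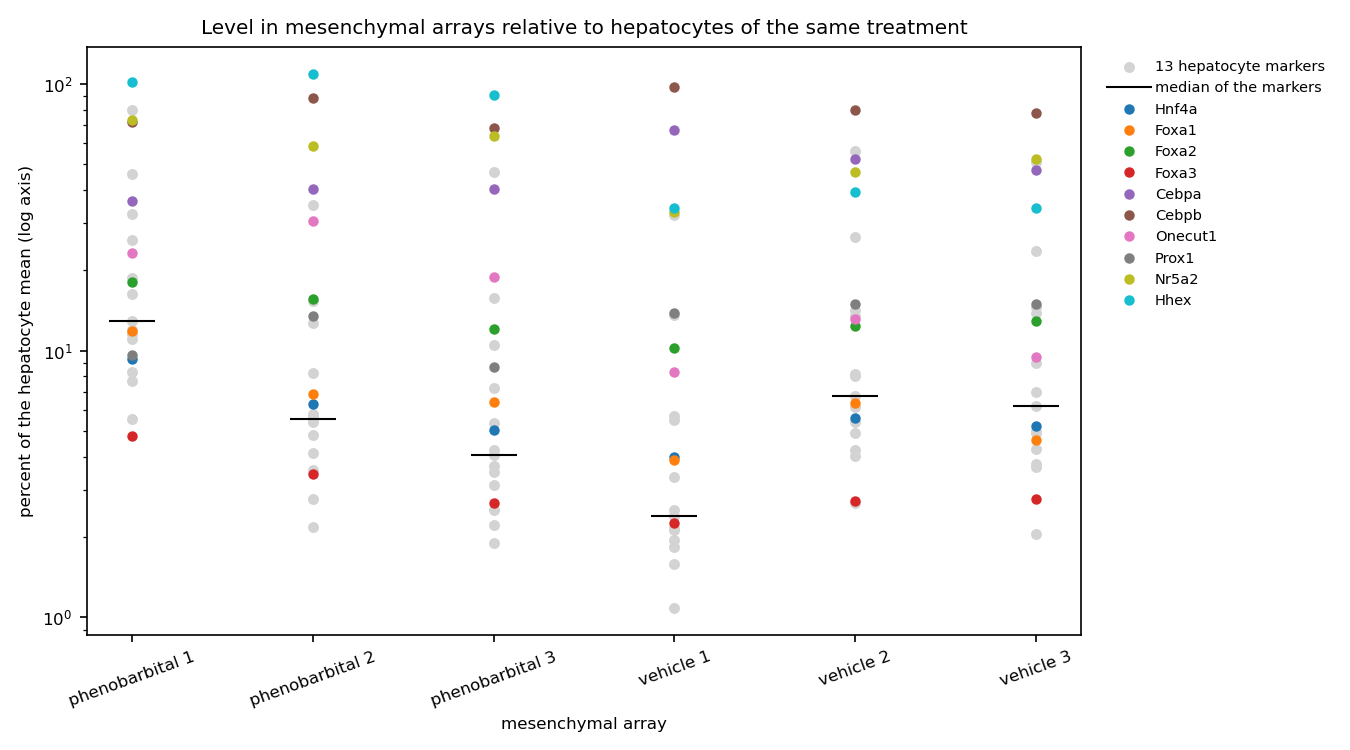
Level on each mesenchymal array as a percentage (log axis) of the hepatocyte mean of the same treatment for the 10 genes (coloured) and 13 hepatocyte markers (grey, with a bar at their median), by array. By their brightest probe sets, Cebpb, Cebpa, Nr5a2, Hhex, Onecut1 and Foxa2 lie above the marker median on all 6 arrays. Hhex lies at 90.6% to 109% on the phenobarbital arrays.

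Related genes placed these values in the 2 populations of vehicle mice. All 28 tested hepatocyte target genes were higher in hepatocytes (median 4.90), among them Igfbp1 at 5.95 (SE 0.39) and coagulation factor F9 at 5.69 (SE 0.24). Of 18 tested partners 13 were higher and 3 lower. The widest differences were those of Ppara, the fatty acid receptor, at 5.01, Mlxipl, the carbohydrate-response factor ChREBP, at 4.44, Nr1i3, which encodes CAR, at 4.04, and Klf15 at 4.02. The 3 lower ones, named after their values were seen, were Gata4 at −2.02 and the orphan receptors Nr2f1 and Nr2f2 at −2.61 and −1.94. Of 20 endothelial and macrophage factors 19 were lower in hepatocytes, with Ets1 at −6.87, Klf2 at −6.43, Lmo2 at −4.94 and Spi1 at −4.82, and Runx1 was higher by 0.44. Among relatives, 2 of 8 bZIP genes were higher and 3 lower, with Nfil3 at 3.49 and Cebpd at −2.47, and 3 of 9 other forkhead genes were higher and 2 lower, with Foxq1 at 3.28 and Foxp1 at −0.87.

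Genes with the most similar profiles were found by the root mean square difference between log2 profiles over the 12 arrays, each centred on its own mean. This is a description that mostly reflects the difference between the populations, which the arrays share. Nearest to Hnf4a was Tfr2, transferrin receptor 2, at 0.0898, and nearest to Foxa3 was Slc17a2 at 0.141. Onecut1 was nearest to Hmgcs1 (0.347) and Dhcr7 (0.355). Hhex was nearest to Dnajc12 (0.255), Prox1 to Epha1 (0.195), Foxa1 to Igfals (0.335), Foxa2 to Crot (0.195), Nr5a2 to Stap2 (0.165), Cebpa to Paip1 (0.103) and Cebpb to Calcb (0.131). No member was the nearest gene of another, and the closest pair of members was Foxa2 with Onecut1 at 0.384.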

How the data were processed

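Gene expression of isolated mouse hepatocytes and mesenchymal cells was measured on 12 arrays after amplification with a 3′ IVT kit, per the labels' protocols. The values deposited by the authors are on a log2 scale. The submitters' processing notes name RMA, without software or probe annotation that the sources used here would give. RMA brings all arrays to a near-common distribution, so a shift shared by most genes would be removed. No scan batches were known, and precision rests on 3 arrays per group. The platform annotation gave 1 symbol to 20380 probe sets, several to 691 and none to 1555. No probe set with several symbols held a member.

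Groups were taken from the labels. All probe sets that exceeded their array's 40th percentile on 3 or more arrays entered limma 3.58.1 in R 4.3.3 (lmFit, then eBayes with its trend option). Benjamini-Hochberg adjustment covered all probe sets tested, with a threshold of 0.05. Each phenobarbital comparison used the 6 arrays of its population, and the others used all 12. The fits were tested on simulated data. Alternatives changed the filter, the handling of several probe sets, the scaling, the trend, the arrays in the fit and the replicate block.

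Hepatocyte and mesenchymal samples of vehicle mice that share a replicate number deviated together (r of 0.192, 0.159 and 0.148, each highest with its own number), so the number was taken to pair them, from the data and not from the labels. In phenobarbital mice r ran from −0.0232 to 0.0528. The main fits held no block, and the number entered only as the replicate-block alternative. Between phenobarbital and vehicle hepatocytes, which come from different mice, r ran from −0.0669 to −0.0322, so that block follows no known pairing there.

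The members, gene lists and tests were chosen with earlier results of these data known. All member probe sets are described, though not each of them in every comparison. From each list, up to 4 genes that passed with the widest differences are named, or, where none passed, up to 2 with the smallest p. Promoter sequences of all 10 genes came from RefSeq on GRCm38.p6.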

Additional observations from a re-analysis of the deposited data

Results flagged for a closer look

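For 3 probe sets, every phenobarbital array lay on one side of the vehicle mean in hepatocytes and on the other side in mesenchymal cells. The difference between the 2 effects, hepatocyte minus mesenchymal, was tested in limma over all 12 arrays, and none of the 3 passed. For Hhex it was −1.48 (SE 0.34, adjusted p = 0.813), for Cebpa 0.49 (SE 0.17, adjusted p = 0.958) and for the Nr5a2 probe set 1449706_s_at −0.33 (SE 0.22, adjusted p = 0.960). Without the vehicle arrays numbered 1 of both populations, a choice made after seeing the data, these values were −1.13, 0.35 and −0.06. The other probe sets of Nr5a2 did not show this pattern.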

How the results depend on the processing

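The 8 probe sets that passed between phenobarbital and vehicle hepatocytes became 4 with 1 probe set per gene, 3 with the mean of a gene's probe sets, 5 without the intensity trend, 13 with all 12 arrays in 1 fit, 6 with the replicate block, and 1 to 9 with 1 array left out (1 without phenobarbital array 1, 2 without phenobarbital array 2 and 4 without vehicle array 2). No member passed in any of these fits except the Onecut1 probe set 1421447_at with all 12 arrays (adjusted p = 0.0416). The mesenchymal count stayed at 0 in every alternative, and the count for the difference of effects at 0 except with 1 array left out, where it ran from 0 to 3 (1 without hepatocyte phenobarbital array 3, 3 without mesenchymal phenobarbital array 1). Between the populations, gene-level fits gave 7110 and 7113 calls of 8538 and 8544 genes in vehicle mice and 7122 and 7115 in phenobarbital mice, fewer because fewer features are tested. Leaving out 1 array gave 12101 to 12461 calls in vehicle and 12216 to 12360 in phenobarbital mice.

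The sign turned under an alternative for the following values. With 1 array left out, the hepatocyte differences ran from −0.18 to 0.0267 for Foxa3, from −0.24 to 0.0706 for Cebpb and from −0.10 to 0.0168 for Nr5a2, and the mesenchymal one from −0.20 to 0.0876 for Foxa2. The Hhex difference between populations in phenobarbital mice ran from −0.20 to 0.11 and was 0.23 after subtracting array medians. Without both vehicle arrays numbered 1, added after seeing the data, the difference of effects was 0.0239 for Foxa2 and −0.0897 for Cebpb, against −0.35 and 0.16 over all arrays. Cebpb in vehicle mice passed at 0.46 after subtracting array medians (adjusted p = 0.0186) and at 0.48 with the mean of its probe sets. The cause of these shifts was not tested. With the replicate number as a block, the populations gave 12627 and 12702 calls, and of the members' calls only Cebpb in phenobarbital mice was lost (adjusted p = 0.0659).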

Other observations

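Genes of the stellate cell, acute phase and immediate early lists, counted above, gave 3 further values. Among stellate cell markers, Col3a1, a fibrillar collagen, averaged 8.25 in mesenchymal cells of phenobarbital mice and 7.41 in those of vehicle mice, a difference of 0.84 (SE 0.23, adjusted p = 0.999, limma). Among acute phase genes, Saa2 averaged 10.19 in hepatocytes of phenobarbital mice and 13.21 in those of vehicle mice, a difference of −3.02 (SE 0.80, adjusted p = 0.457, limma). The phenobarbital arrays read 8.93, 9.34 and 12.31, the last of them near the vehicle arrays at 13.02, 13.78 and 12.83. Myc, an immediate early gene of growth control, averaged 7.17 in hepatocytes of phenobarbital mice and 8.30 in those of vehicle mice, a difference of −1.13 (SE 0.28, adjusted p = 0.453, limma). None of the 3 passed.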
